A study of Mus musculus with 22 samples.

Results

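Of the 1190406 probesets with values on the array, 6308 list 2 or more gene symbols in the platform annotation, and these shared probesets are described here. The rule that found them uses the annotation and no measured value, though it was chosen with earlier results of these data known. They were grouped by the set of symbols they list, which gave 1316 symbol groups. Total RNA from the whole brain was compared, in naive adult males, between 10 mice of the inbred strain C57BL/6J (B6) and 12 mice of the inbred strain DBA/2J (D2), with 1 mouse per array. RNA was extracted with TRIzol, cleaned with RNeasy columns and reduced in ribosomal RNA before it was hybridised to the Affymetrix Mouse Exon 1.0 ST array, whose probesets lie along the exons of genes. The study hybridised 24 arrays and left out 2 that had been read on a different scanner, and its title names alternative splicing as its subject. Both groups are whole brains of untreated animals, so all cell types of the brain were measured together, and fewer cells of a type cannot be told apart from less RNA per cell.

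A probeset can carry several symbols because genes overlap or share exons, because a gene was copied and its copies kept nearly the same sequence, because a processed pseudogene repeats an exon, or because an annotation holds old and new names of the same gene. Tandem copies, such as the alpha globin genes or the alpha-1-antitrypsin genes of the mouse, are often read as a sum by short probes, and inbred strains are known to differ in the number and sequence of such copies. The value of a shared probeset therefore belongs to the set of symbols it lists and to no single gene among them. The probes follow the reference mouse sequence, which is that of B6, and whether D2 variants or copy number differences lie under the probes was not tested.

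To show how alike listed copies can be, the 250 bases before the transcription start are given here for pairs from symbol groups described below, from RefSeq on GRCm38.p6. Each pair was aligned with gaps, and capitals mark the bases with no identical partner in that alignment, those that hang over at the ends of a window included. Percentages are identical bases of the 250. The first pair is alpha globin, chr11:32283422-32283671 and chr11:32296242-32296491, both on the plus strand, with 98.8% identical bases. All their capitals are window ends, so the aligned stretch has no difference.
Hba-a1: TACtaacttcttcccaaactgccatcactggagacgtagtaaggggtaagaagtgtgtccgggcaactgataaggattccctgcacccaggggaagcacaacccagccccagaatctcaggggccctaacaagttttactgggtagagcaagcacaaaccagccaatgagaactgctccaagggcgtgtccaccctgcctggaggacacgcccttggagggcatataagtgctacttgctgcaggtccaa
Hba-a2: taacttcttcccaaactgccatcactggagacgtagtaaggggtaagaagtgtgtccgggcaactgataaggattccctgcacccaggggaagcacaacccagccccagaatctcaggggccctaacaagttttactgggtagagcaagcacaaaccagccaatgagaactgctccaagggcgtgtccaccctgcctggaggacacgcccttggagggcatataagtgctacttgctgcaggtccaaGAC
The second pair is alpha-1-antitrypsin, chr12:103863620-103863869 and chr12:103738190-103738439, both on the minus strand, with 90.8% identical bases.
Serpina1a: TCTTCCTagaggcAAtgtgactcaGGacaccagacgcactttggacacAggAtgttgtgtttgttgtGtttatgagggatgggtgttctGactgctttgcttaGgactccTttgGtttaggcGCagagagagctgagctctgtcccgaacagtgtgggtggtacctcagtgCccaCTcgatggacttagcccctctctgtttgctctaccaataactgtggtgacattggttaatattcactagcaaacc
Serpina1b: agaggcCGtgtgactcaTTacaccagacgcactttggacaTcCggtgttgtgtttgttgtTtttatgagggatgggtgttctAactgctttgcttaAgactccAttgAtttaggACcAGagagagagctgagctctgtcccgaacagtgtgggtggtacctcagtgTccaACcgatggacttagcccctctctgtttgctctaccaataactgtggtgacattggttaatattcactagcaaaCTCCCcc
Gapped alignment gives a high level to any pair, with a median of 60.2% for 56 listed pairs with different names that lie apart. Mfap1a with Mfap1b had 86.8% and Lyz1 with Lyz2 82.0%, while Acaa1a with Acaa1b, at 59.2%, were no more alike here than such pairs. These windows lie outside the probesets, whose own sequences are in none of the files used here.

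Probesets entered the test when their log2 value, averaged over the 22 arrays, reached the median of all probesets, 1.44, which kept 3848 shared probesets in 833 symbol groups and left out 2460. In limma's moderated test an adjusted p under 0.05 was a call, with Benjamini-Hochberg adjustment over all 595203 kept probesets. Of the 3848 kept shared probesets 315 were called (8.19%), against a background of 3.91% of all kept probesets and 4.06% of kept probesets with 1 symbol. In D2, 120 were higher and 195 were lower, where the background was 1.67% higher and 2.24% lower. For 103 of the called shared probesets the values of B6 and D2 did not overlap, 51 of them higher and 52 lower in D2, against 0.769% of all kept probesets, 0.297% higher and 0.472% lower. The median difference of the kept shared probesets was -0.05, and that of all kept probesets was 0.01 (log2, D2 minus B6). Calls were concentrated in few symbol groups, since 120 of the 833 groups had any and the 8 groups with most calls held 111 of them. Outside those 8 groups, 204 of 3711 probesets were called (5.50%). In 28 of the 315 the mean of one strain was under 1.44, so that they were kept through the other strain and the size of their difference is not well measured.

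The share of kept probesets called differed with how the listed symbols relate to each other, though probesets of the same group are not independent. Where both names are now the same gene, 38 of 167 probesets were called, 37 of them lower in D2, and 24 of these belong to Hjurp alone. Copies with the same name root were called at 99 of 796 probesets when they are neighbours on the chromosome and at 36 of 336 when they lie apart. Genes with different names that lie apart were called at 22 of 185 probesets (11.9%), 19 of them higher, and 11 of the 22 list Cwc22 and Il1f9. Neighbouring genes with different names were called at 50 of 1175 probesets (4.26%), near the background. Probesets that list a pseudogene elsewhere in the genome were called at 30 of 825 (3.64%). Groups with a symbol that has no place in the gene table were called at 27 of 110, most of them in histocompatibility or Pisd groups. Symbol groups with any call were 20 of 136 for neighbours with different names and 8 of 74 for different names apart. They were 37 of 277 for neighbours with the same root, 13 of 103 for the same root apart and 18 of 144 for a pseudogene elsewhere. Counted by groups, these classes were closer to each other than counted by probesets. The other classes spread further, with 7 of 30 groups for names of 1 current gene and 11 of 27 with an unplaced symbol. They were 3 of 5 with a read-through name and 3 of 37 with a neighbouring pseudogene, and 120 of 833 over all groups. No such count was made for probesets with 1 symbol.

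**Figure D1:**
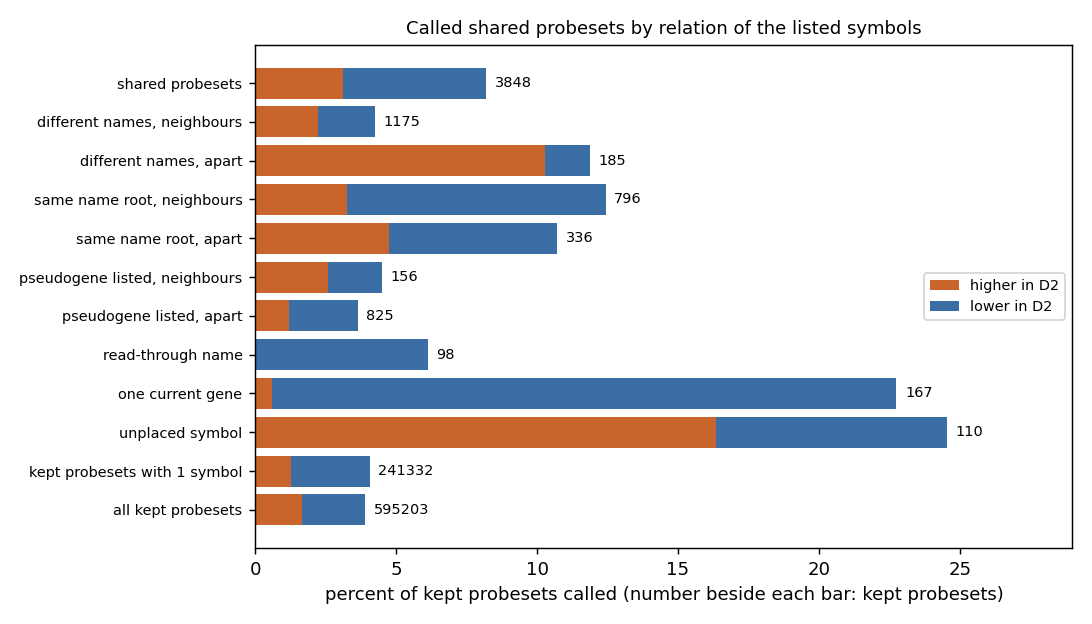
Percent of kept probesets called (horizontal axis) by the relation of the listed symbols (vertical axis), split into higher and lower in D2, with the number of kept probesets beside each bar. Copies with the same name root, names of 1 current gene, unplaced symbols and different names that lie apart are above the 3.91% of all kept probesets, and neighbours with different names are near it.

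A value per symbol group was taken as the median of its kept probesets on each array, for the 338 groups with at least 3. With genes and groups tested together, 57 of the 338 groups were called (16.9%), 17 higher and 40 lower in D2, against a background of 11% of genes and groups, 2.62% higher and 8.4% lower. The group values of 12 called groups did not overlap between the strains. With the array median as a covariate 31 groups were called, and where the call of a group difference given below ended there, its value with the covariate is given too.

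The largest block of lower probesets was Hjurp, a chaperone that places the centromeric histone, which the annotation lists under its old names 6430706D22Rik and A730008H23Rik. Of its 26 kept probesets 24 were called, all lower in D2. The group value was 5.90 at the lowest, 6.29 at the median and 6.43 at the highest in B6, and 4.04, 4.62 and 4.78 in D2. Every D2 array lay below every B6 array, and the difference was -1.71 ± 0.09 (SE; adjusted p = 5.1e-14), a 3.28-fold lower signal. The single probesets ranged from -2.68 to 0.36.

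Acaa1a and Acaa1b encode copies of the peroxisomal thiolase of fatty acid oxidation. Of 27 kept probesets 17 were called, all lower in D2. The group value in B6 was 4.81, 5.15 and 5.43 (lowest, median, highest) and in D2 it was 3.94, 4.18 and 4.52, with no overlap. The difference was -0.95 ± 0.09 (SE; adjusted p = 5.5e-09).

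Fam177a and Fam177a2 share 8 kept probesets, 7 of which were lower in D2. Their group value ran from 5.92 through 6.25 to 6.56 in B6 and from 4.74 through 5.29 to 5.47 in D2, again without overlap, and differed by -1.01 ± 0.09 (SE; adjusted p = 4.2e-09). A probeset that lists both with Srp54c differed by -1.46 ± 0.16 (SE). The neighbouring group of Srp54a, Srp54b and Srp54c, copies of the GTPase subunit of the signal recognition particle, had 11 of 14 probesets lower. Its values of 6.56, 7.31 and 7.62 in B6 and 5.71, 6.55 and 6.93 in D2 overlapped, and the difference was -0.75 ± 0.13 (SE; adjusted p = 0.00023). With the array median as a covariate that difference was -0.26 and the call ended (adjusted p = 0.39).

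The alpha globin pair Hba-a1 and Hba-a2, which encodes the alpha chain of haemoglobin in red blood cells, had 6 of 10 probesets lower in D2. The group value in B6 was 9.77, 10.36 and 10.56 and in D2 it was 8.90, 9.41 and 10.08. The highest D2 array lay above the lowest B6 array, and the difference was -0.91 ± 0.12 (SE; adjusted p = 3.3e-06). It was -0.59 when the mean of the probesets replaced their median. The most different probeset of the pair, -1.51 ± 0.11 (SE), did not overlap between the strains. The beta globin pair Hbb-b1 and Hbb-b2 differed by -0.44 ± 0.13 (SE; adjusted p = 0.026), and its call ended with the covariate (-0.40, adjusted p = 0.32). Of 3 red blood cell markers, 2 had a gene value, and both were lower in D2. Hbb-b1 differed by -4.12 on its own probesets and Alas2, the first enzyme of haem synthesis in red cells, by -0.90. Their mean level was 6.62 to 7.63 in B6 and 3.90 to 5.73 in D2, a gap that is mostly that of Hbb-b1. The probesets shared by Hbb-b1 and Hbb-b2 differed only by -0.53 to -0.39, and Alas2 overlapped between the strains. The mean level therefore cannot be read as red blood cell content, and the part of red blood cells in the globin values was not tested.

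Other groups lower in D2 without overlap of the group values were BC051142 with Tesb, now 1 gene, at -1.08 ± 0.10 (SE), the histocompatibility group H2-T10, H2-T22 and H2-T9 at -0.70 ± 0.09 (SE), and H2-Q1, H2-Q2, H2-Q6 and H2-gs10 at -1.89 ± 0.15 (SE). The last rests on 3 kept probesets of 8, of which 1 was called, and these ranged from -2.26 to 0.14. Its group difference was -0.91 when means replaced medians and -0.54 with no filter on low values. The group of H2-Q1, H2-Q6 and H2-gs10 had 2 probesets called higher and 1 called lower. Klf9, a transcription factor induced by steroid and thyroid hormones and listed also as 2310051E17Rik, had 5 of 11 probesets lower. Its group difference was -0.58 ± 0.07 (SE), with overlap. Nat8f2 and Nat8f4, acetyltransferase copies, differed by -1.12 ± 0.19 (SE), with overlap, and by -0.65 with no filter. Lyz1 and Lyz2, the lysozymes, differed by -0.53 ± 0.13 (SE), also with overlap, a call that ended with the covariate (-0.17, adjusted p = 0.69).

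Among the groups higher in D2, the group of Ermard and the neighbouring model 9030025P20Rik was called at all 21 kept probesets. Ermard encodes a protein of the endoplasmic reticulum membrane, and its own probesets were not called (-0.30, given below). The group value was 5.25, 5.55 and 5.71 in B6 and 6.41, 6.54 and 6.90 in D2, with every D2 array above every B6 array. The difference was 1.01 ± 0.07 (SE; adjusted p = 3.3e-11).

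The alpha-1-antitrypsin genes Serpina1a to Serpina1e encode secreted inhibitors of proteases, known mainly from liver. The group that lists all of them had 9 of 12 probesets higher in D2. Among these, the probeset with the largest difference had a B6 mean of 1.22, under the filter, and was kept through D2. The group value includes that probeset. The group value ran from 2.20 through 2.40 to 2.84 in B6 and from 3.31 through 3.85 to 4.11 in D2, without overlap, and differed by 1.30 ± 0.11 (SE; adjusted p = 1e-09). The probeset listing Serpina1a and Serpina1b, whose promoters are printed above, read 0.14, 1.12 and 1.83 in B6 and 4.43, 5.37 and 5.94 in D2, without overlap. A probeset listing Serpina1b and Serpina1c read 0.01, 0.60 and 1.14 in B6 and 2.40, 3.94 and 4.24 in D2. Both were called, but their B6 means are under the filter and they were kept through D2, so no size is given for either difference. Of the liver markers only Alb had a gene value, which was not called, at 2.20 to 3.12 in B6 and 2.34 to 3.07 in D2.

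Pisd, the mitochondrial phosphatidylserine decarboxylase, shares probesets with its copies Pisd-ps2 and Pisd-ps3. All 4 probesets of Pisd with Pisd-ps3 were higher in D2, with group values of 7.52, 7.86 and 8.59 in B6 and 9.41, 9.61 and 9.85 in D2 and a difference of 1.64 ± 0.10 (SE; adjusted p = 2.9e-12). All 6 probesets of Pisd-ps2 with Pisd-ps3 were higher too, with 8.58, 9.03 and 9.52 in B6, 10.24, 10.42 and 10.58 in D2, and a difference of 1.41 ± 0.09 (SE; adjusted p = 1.2e-11). Neither group overlapped between the strains.

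Catsperg1 and Catsperg2, auxiliary subunits of the calcium channel of sperm, had 11 of 14 probesets higher. Their group value of 1.76, 2.17 and 2.61 in B6 and 2.82, 3.08 and 3.25 in D2 is low, did not overlap, and differed by 0.83 ± 0.09 (SE; adjusted p = 2.8e-07). Cwc22, a splicing factor, with the cytokine Il1f9 had 11 of 15 probesets higher at a smaller size, 0.45 ± 0.08 (SE; adjusted p = 0.00025), with overlap between the strains. That call ended with the covariate (0.33, adjusted p = 0.11). Pcdha1 with Pcdha4, alternative cell adhesion genes of the protocadherin alpha cluster, differed by 1.15 ± 0.12 (SE) without overlap. The histocompatibility pair H2-D1 and H2-K1 differed by 1.53 ± 0.16 (SE) with overlap, on 3 kept probesets. On their own probesets these genes were not higher in D2, since H2-K1 was called lower at -0.68 and H2-D1, at -0.05, was not called. Nudc, a dynein regulator, with its pseudogene differed by 0.54 ± 0.11 (SE).

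**Figure D2:**
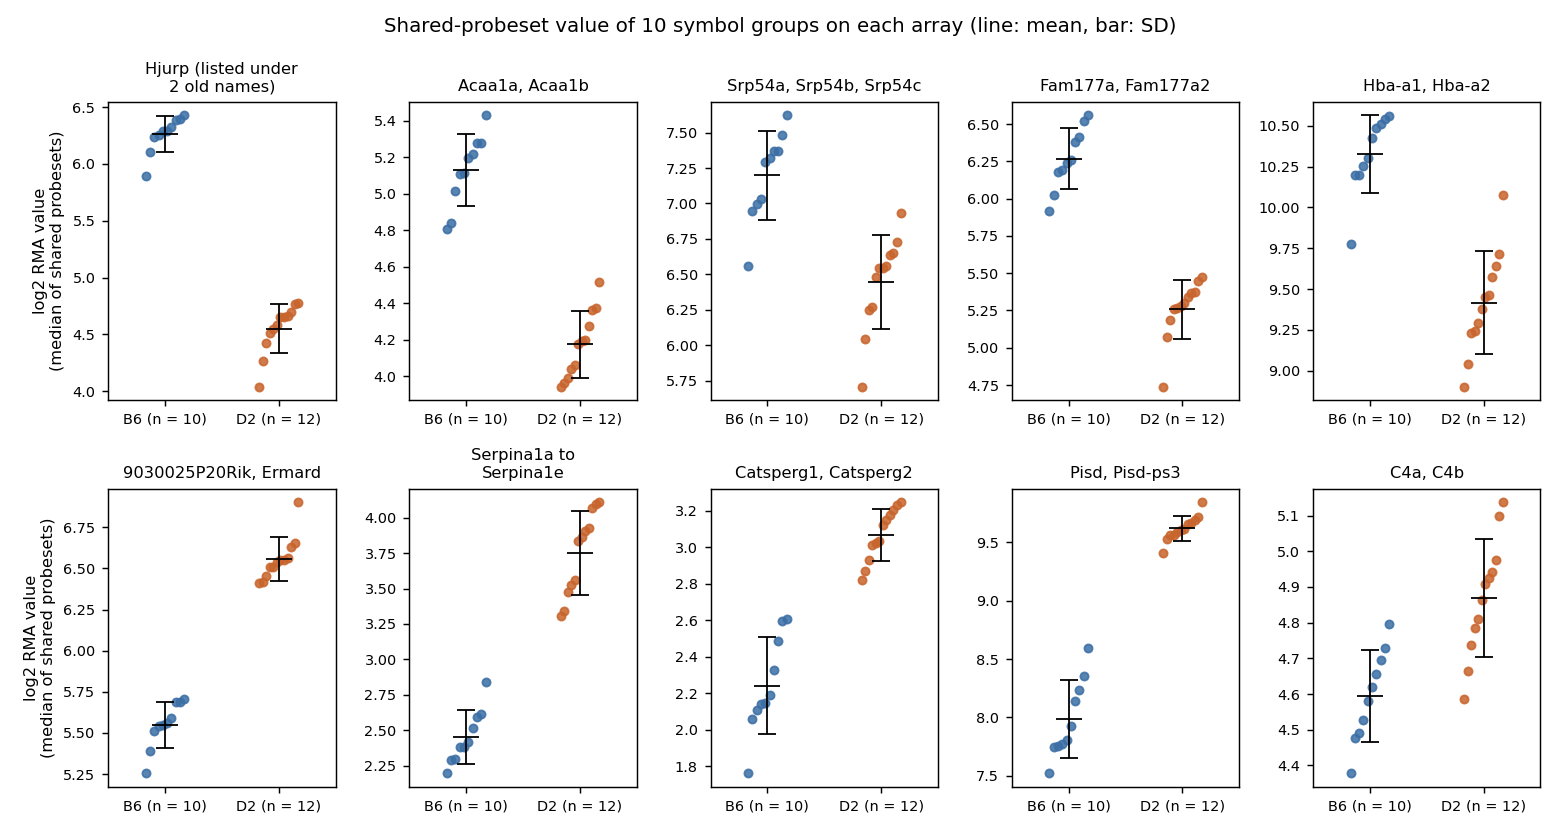
Median log2 RMA value of the shared probesets (vertical axis) of 10 symbol groups on each array, B6 (n = 10) and D2 (n = 12), with the mean as a line and the SD as a bar; the groups were chosen for display after their values were seen. The strains do not overlap for Hjurp, Acaa1a with Acaa1b, Fam177a with Fam177a2, Ermard with 9030025P20Rik, Serpina1a to Serpina1e, Catsperg1 with Catsperg2, and Pisd with Pisd-ps3, and overlap for the others.

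For Snrpn with Snurf and for Cox7a2l with Gm6969 a single probeset carried the difference. Snrpn and Snurf are encoded by a single bicistronic, paternally expressed transcript. Of their 14 kept probesets 13 were not called, and the remaining probeset was 6.36, 7.04 and 7.44 in B6 and 3.63, 4.22 and 4.87 in D2, a difference of -2.70 ± 0.16 (SE; adjusted p = 5.8e-12). The group value differed by 0.08 ± 0.08 (SE) and was not called. Cox7a2l, an assembly factor of respiratory supercomplexes, shares 4 kept probesets with Gm6969. One of them read 1.80, 3.13 and 3.91 in B6 and 5.35, 6.61 and 7.28 in D2, a difference of 3.70 ± 0.24 (SE; adjusted p = 2.5e-11), and the lowest of the others was -0.28. The group difference of 1.09 therefore does not describe all 4. For the groups that follow, 1 probeset each is given, without a count of the rest. A probeset of the ribosomal protein gene Rpl38 with Rpl38-ps2 differed by -2.32 ± 0.27 (SE), with 6.36, 6.74 and 7.35 in B6 and 2.64, 4.55 and 5.74 in D2. With the array median as a covariate this was -1.50. A probeset of the spliceosome genes Mfap1a and Mfap1b differed by -1.28 ± 0.13 (SE). The probeset of Trim12a, Trim12c and Trim5, members of a family of antiviral ubiquitin ligases, read 2.41, 3.30 and 3.92 in B6 and 0.76, 1.36 and 2.10 in D2, where its mean was under the filter. In the related group of Trim12c and Trim5, 2 of 5 probesets were called lower, and the group difference of -0.62 ± 0.21 (SE) was not called. The B6 and D2 arrays were separate at each of the single probesets given in this paragraph.

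The groups with most kept probesets mostly had few calls. At the 3.91% called among all kept probesets, groups of this size would also hold few. C4a and C4b, complement component genes, had 56, of which 3 were called, and a group difference of 0.27 ± 0.07 (SE; adjusted p = 0.016) that was not called with the covariate (0.37, adjusted p = 0.055). Ankhd1 with Eif4ebp3 had 1 of 52 called and a group difference of -0.09 ± 0.09 (SE). Cerkl with Itga4 had 1 of 46 called, and Cdan1 with Ttbk2 had 1 of 40. No probeset was called by limma in Cdc26 with Fkbp15 (48 kept, 2 at an unadjusted p under 0.05, 0 called with limma's trend and robust options) or Gtf3c2 with Mpv17 (34 kept, 2 and 0). In Smarca5 with Gm21978, 0 of 41 were called, 13 had an unadjusted p under 0.05 and 1 was called with the trend and robust options. Arid2, listed also as 1700124K17Rik, had 0 of 35 called, 2 at an unadjusted p under 0.05 and 0 with those options. Among bright probesets, the alpha tubulin pair Tuba1b and Tuba1c was 11.05, 11.16 and 11.29 in B6 and 10.84, 11.14 and 11.36 in D2, with a difference of 0.00 ± 0.08 (SE).

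**Figure D3:**
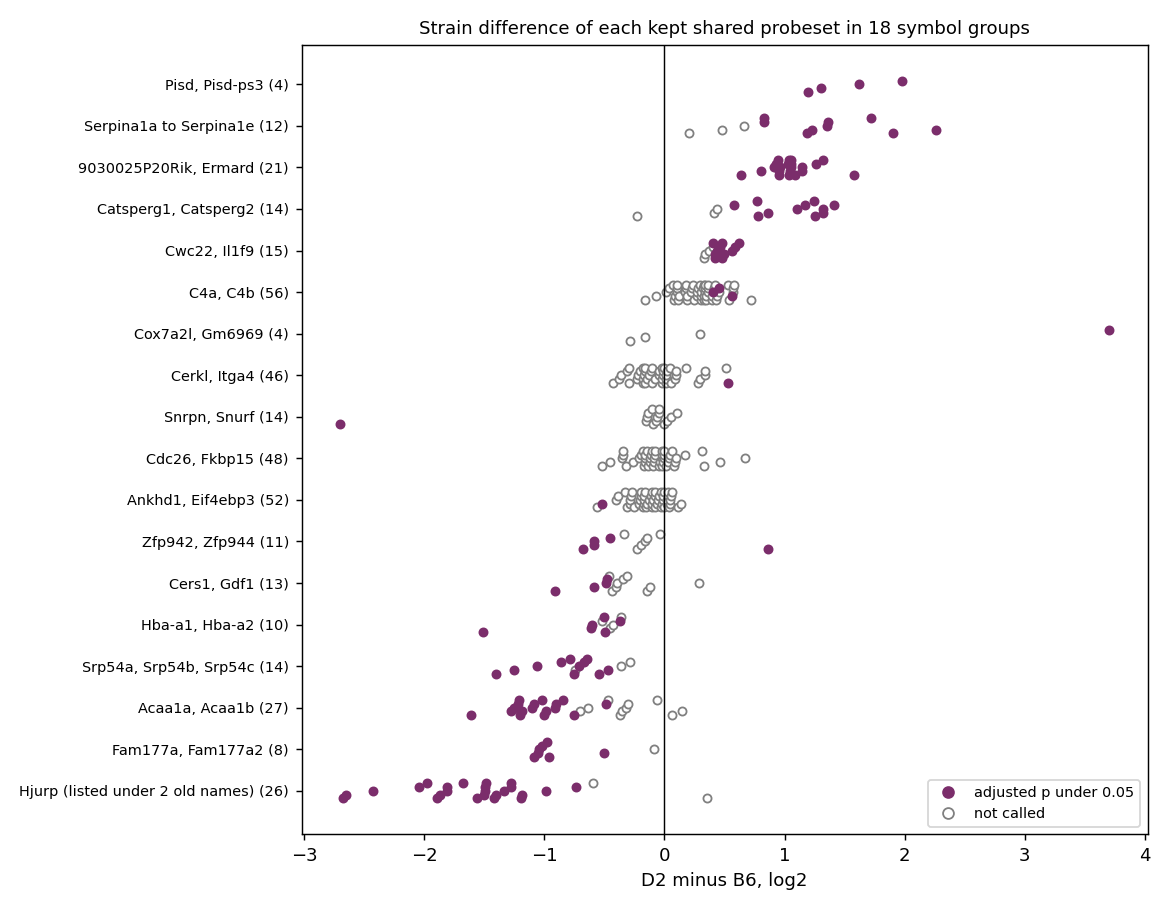
Strain difference (horizontal axis, log2, D2 minus B6) of every kept shared probeset in 18 symbol groups (vertical axis, number of kept probesets in brackets), filled where the adjusted p was under 0.05; the groups were chosen for display after their values were seen. All probesets of Ermard with 9030025P20Rik and of Pisd with Pisd-ps3 are filled and above 0, most of Hjurp and of Acaa1a with Acaa1b are filled and below 0, and Snrpn with Snurf and Cox7a2l with Gm6969 each have 1 probeset far from the rest.

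Where a listed gene also has at least 3 kept probesets of its own, the shared probeset can be set against that gene's value on the same array. Of 3183 such pairs, 183 were called at an adjusted p under 0.05 and a difference of at least 0.5 (5.75%), 118 higher and 65 lower in D2 relative to the gene, against a background of 1.74%, 0.942% higher and 0.797% lower. The background consists mostly of probesets tested against the gene they belong to alone. For 810 probesets at least 2 listed genes could be compared. Of these, 55 were called relative to one listed gene and not to another, 19 relative to all and 736 relative to none. A pair that was not called may still differ, as for a probeset of Pisd-ps2 and Pisd-ps3 that missed the size of 0.5 relative to Pisd-ps3 (-0.497, adjusted p = 0.00036), and no test was made between the listed genes.

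The Pisd probesets are among the 55. The gene value of Pisd differed by -0.03 ± 0.09 (SE), that of Pisd-ps3 by 2.03 ± 0.12 (SE) and that of Pisd-ps2 by 0.30 ± 0.12 (SE). Relative to Pisd, all 4 probesets of Pisd with Pisd-ps3 were higher in D2, by a median of 1.49, and relative to Pisd-ps3, 2 of the 4 were lower, by a median of -0.56 over the 4. The probeset with the largest difference was 2.00 ± 0.16 (SE) above Pisd and -0.05 ± 0.09 (SE) from Pisd-ps3. Sfi1, a centrosome component, differed by 2.28 ± 0.08 (SE) on 94 probesets of its own. The probesets it shares with Cd59b, Mtm1, Rara or Sft2d2 were not called. All 4 probesets of Cd59b, Sfi1 and Sft2d2 were lower in D2 relative to Sfi1, by -2.14 to -2.63. For the 5 Sfi1 probesets followed under each alternative, the difference from Sfi1 was -0.74 to -1.31 with the array median as a covariate, and the call ended.

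Ermard's own 12 probesets differed by -0.30 ± 0.12 (SE; adjusted p = 0.1), so that all 21 probesets shared with 9030025P20Rik were higher relative to Ermard, by 0.94 to 1.88. For Snrpn, whose own probesets differed by 0.46 ± 0.09 (SE), 9 of the 14 shared probesets were lower in D2 relative to the gene. For Hbb-b1 all 5 shared probesets were higher in D2 relative to the gene, by 3.58 to 3.73, where the gene value itself fell by 4.12. Zfp874a, a zinc finger gene, had a gene value of -3.42 ± 0.20 (SE), and all 4 probesets shared with Zfp874b were higher relative to it, while the group value differed by -0.03 ± 0.08 (SE). In the histone H4 group, 12 of 18 probesets were higher relative to H4c12, whose own value differed by -1.16. C4b differed by 0.43 ± 0.09 (SE) and C4a by 0.01 ± 0.10 (SE) on their own probesets, and 1 of 56 shared probesets was called against each.

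**Figure D4:**
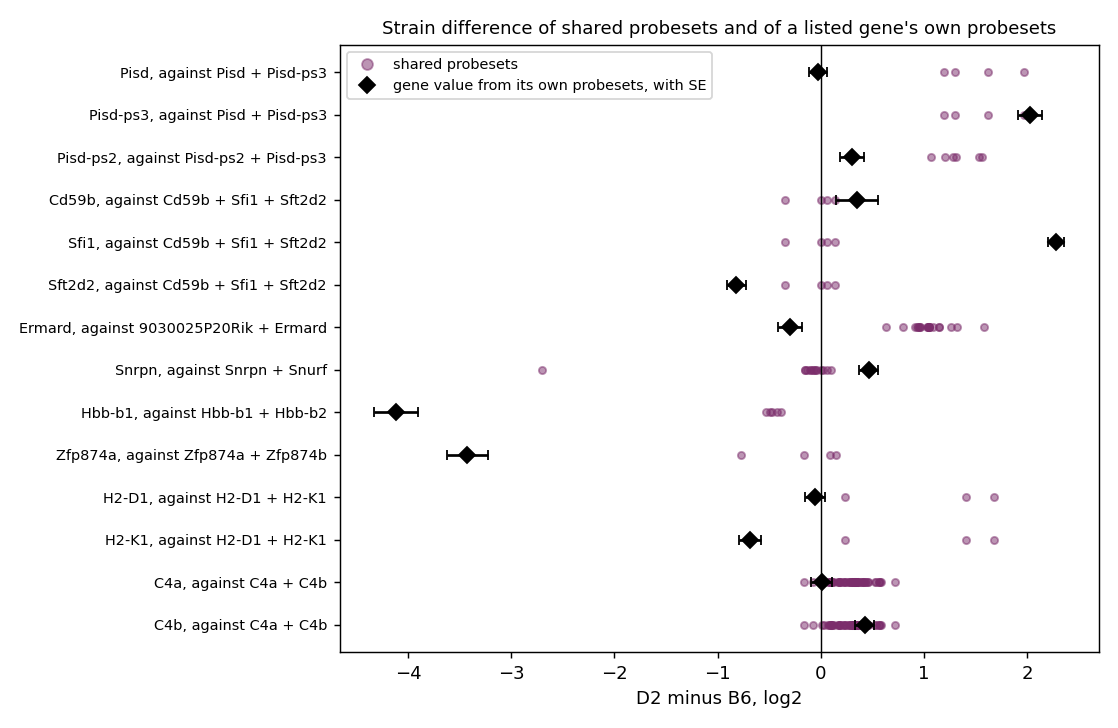
Strain difference (horizontal axis, log2, D2 minus B6) of shared probesets (circles) and of the gene value from a listed gene's own probesets (diamonds, with SE), 1 row per gene and symbol group; the rows were chosen for display after their values were seen. The Pisd with Pisd-ps3 probesets lie near or below Pisd-ps3 at 2.03 and above Pisd at -0.03, and the Sfi1 probesets lie far below Sfi1 at 2.28.

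The families below are read against the 3.91% called among all kept probesets. Serpins had 15 of 23 kept probesets called higher in D2 and none lower, with a median of 1.20 over the 23. The group of Serpina1a to Serpina1e gave 9 of these 15. Some of the 15 had a B6 mean under the filter, such as 0.55 for Serpina1b with Serpina1c, and were kept through D2. The count and the median include them, so the median is not a well measured size. Major histocompatibility genes, which present peptides to T cells, had 21 of 68 called, 8 higher and 13 lower. Globins had 7 of 15 lower. Clustered protocadherins, adhesion molecules that give neurons distinct surfaces, had 10 of 48 called, 6 higher and 4 lower, and their most negative probeset, of Pcdhga12 and Pcdhga3, differed by -1.66 ± 0.12 (SE) without overlap. Histones had 6 of 89 called, all lower, among them a probeset of H2bc3, H2bc4, H2bc6 and H2bc8 at -1.51 ± 0.21 (SE). The group value of these genes differed by -0.51 ± 0.15 (SE). Its call ended with the array median as a covariate (-0.20) and with no filter (-0.15). With the covariate the calls of a histone H3 probeset (-1.01) and a histone H4 probeset (-0.60) ended too.

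Models with only Riken or Gm names had 29 of 119 called, 25 of them lower, and 24 of these are the Hjurp group. Zinc finger genes had 11 of 149 called, 3 higher and 8 lower, and the pair Zfp942 and Zfp944 had probesets in both directions, 1 higher by 0.87 and 4 lower. Odorant and pheromone receptors had 7 of 154 kept probesets called, of 804 in all. Cytosolic ribosomal proteins had 5 of 74 called, and tubulins 1 of 37. Proteasome genes had 0 of 38 called by limma, 6 at an unadjusted p under 0.05 and 0 with the trend and robust options. The same counts were 0, 2 and 0 of 18 for the mitochondrial ribosome, 0, 5 and 0 of 34 for cytochromes P450, 0, 3 and 0 of 49 for solute carriers, and 0, 1 and 0 of 8 for glutathione transferases. They were 0, 0 and 0 of 13 for kallikreins, 0, 2 and 0 of 11 for small nucleolar and nuclear RNAs, and 0, 1 and 0 of 3 for kinases. No shared probeset listed a microRNA or a potassium channel by the name patterns used.

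Of a list drawn up as textbook loci in which genes share exons, a transcript or a promoter region, 4 had a gene with shared probesets here. Cers1, a ceramide synthase, and the growth factor gene Gdf1 share a transcript, and 4 of 13 probesets were lower in D2, the lowest by -0.91 ± 0.17 (SE), though the group value was not called (-0.36 ± 0.13, SE). Tnfsf12 and Tnfsf13, cytokine genes joined by a read-through transcript, had 4 of 16 lower. The group that also lists the read-through name differed by -0.50 ± 0.10 (SE), a call that ended with the filter at the 75th percentile (-0.25). Its lowest probeset, at -0.97 ± 0.21 (SE), was not called with the array median as a covariate (-1.02). The remaining entries were Snrpn with Snurf, described above, and Sfi1 with Pisd. No shared probeset listed both Sfi1 and Pisd. Each shared probesets only with other symbols, as described above, so this pair gives no example of a shared locus here.

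The measured neuronal, astrocyte, oligodendrocyte and microglial markers were not called. Snap25 differed by -0.11 and Mbp by -0.07. Of the choroid plexus markers, Folr1 was called at -0.61 and Ttr, at -0.16, was not, and the endothelial marker Pecam1 was called at -0.33. Their part in the values above was not tested. The arrays carry a file letter, A or B, whose meaning is not stated, and the 4 letter B arrays are 2 of each strain. On the letter A arrays alone and on the letter B arrays alone, the group differences were -1.81 and -1.27 for Hjurp, -0.97 and -0.90 for Acaa1a with Acaa1b, and -0.93 and -0.86 for Hba-a1 with Hba-a2. They were 1.02 and 0.95 for Ermard with 9030025P20Rik, 1.35 and 1.06 for Serpina1a to Serpina1e, and 1.61 and 1.78 for Pisd with Pisd-ps3. Of the 120 called named results, which were chosen on all arrays, 6 passed the threshold on the letter B arrays alone.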

How the data were processed

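The authors deposited log2 expression values per probeset, and the submitters' processing notes name RMA, R 2.6.0 and affy 1.12.2. In RMA the background is corrected, the arrays are equalized by quantiles and each probeset gets 1 value. The options used are not given in the sources used here. Of 1201338 probesets 10932 were empty and left out, and array medians were 1.41 to 1.51. Arrays have no read depth, so their number limits the precision.

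Symbols came from the platform annotation. Of the 1952 listed, 1343 were current in the GRCm38.p6 gene table, 585 were updated through a synonym and 24 kept. That table also gave neighbours, at most 10 genes apart. Promoters came from RefSeq, and where a gene has several starts the most alike windows of a pair were taken (Biopython 1.88, global alignment with gaps).

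Differences (D2 minus B6) were fitted in R 4.3.3 with limma 3.58.1 (lmFit, eBayes, two-sided, Benjamini-Hochberg) over the whole table, and errors are SE. Probesets with a mean of at least 1.44 were kept. Gene and group values are medians of at least 3 kept probesets. The index is a probeset minus a gene's value, called at an adjusted p under 0.05 and at least 0.5. The steps were tested on simulated data, with criteria rewritten after the first versions of that test failed. Figures used matplotlib 3.10.9.

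The members and lists were chosen with earlier results of these data known. Named were the 12 highest and 12 lowest called probesets without overlap, the 8 groups with most kept and the 8 with most called probesets, family members, textbook loci (1 probeset per group, reduced after values were seen), 8 groups with a split index and 6 bright probesets with the smallest differences. Other called groups, the classes of symbols, some family name patterns and the promoter pairs were chosen after values or symbols were seen. Alternatives were array centring, the array median as covariate, the file letter as block or alone, other filters, 3 D2 arrays left out, trend and robust options, means for medians, and current genes only.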

Additional observations from a re-analysis of the deposited data

Results flagged for a closer look

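Among the 10 B6 arrays, 1 array stood apart from the rest by Dixon's criterion in 11 of 145 named probesets and groups checked. Chance flags about 1 in 20 groups, and the 12 D2 arrays are too many for this criterion. Values are log2. B6 replicate 6 was the lowest for the probeset of Hba-a1 with Hba-a2, at 10.34 against 10.67 on the nearest array. B6 replicate 11 was the lowest for the probeset of H2bc3 with H2bc4 with H2bc6 with H2bc8, at 4.48 against 5.13 on the nearest array. B6 replicate 6 was the lowest for the probeset of Acaa1a with Acaa1b, at 5.80 against 6.19 on the nearest array. B6 replicate 6 was the highest for the probeset of Ugt1a1 with Ugt1a10 with Ugt1a2 with Ugt1a5 with Ugt1a6a with Ugt1a6b with Ugt1a7c with Ugt1a9, at 2.76 against 2.29 on the nearest array. B6 replicate 5 was the lowest for the probeset of Zfp758 with Zfp943, at 5.81 against 6.18 on the nearest array. B6 replicate 11 was the lowest for the probeset of H4c1 with H4c11 with H4c12 with H4c14 with H4c17 with H4c2 with H4c3 with H4c4 with H4c6 with H4c8 with H4c9 with H4f16, at 0.81 against 1.79 on the nearest array. B6 replicate 2 was the lowest for the probeset of Olfr1477 with Olfr1484 with Olfr1487, at 3.72 against 4.43 on the nearest array. B6 replicate 6 was the lowest for the group value of Cdan1 with Ttbk2, at 4.29 against 4.54 on the nearest array. B6 replicate 2 was the highest for the group value of Gbp10 with Gbp11 with Gbp6, at 4.23 against 3.76 on the nearest array. B6 replicate 6 was the lowest for the group value of Hba-a1 with Hba-a2, at 9.77 against 10.20 on the nearest array. B6 replicate 12 was the highest for the group value of Nlrp5 with Vmn1r90, at 5.43 against 4.72 on the nearest array.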

How the results depend on the processing

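With the array median as a covariate 186 probesets, 31 groups and 110 index pairs were called, and 43.5% of the called probesets were lower in D2, against 61.9% without it. On the 4 letter B arrays alone 1 probeset, 6 groups and 0 index pairs were called by limma, with 421 index pairs at an unadjusted p under 0.05. With no filter 295 index pairs were called. The causes were not tested. Counts under the other alternatives stayed within 1.5 times. Of 120 called named results 64 stayed called with the covariate, 105 without 3 D2 arrays and 120 with the file letter as block. With no filter, called Clca4a with Clca4b turned to 0.14 and called Gm5852 with Gm9116 to -0.14. With the covariate Gm5852 with Gm9116 was 0.0357, Gbp10 with Gbp11 and Gbp6 was -0.12, Gbp10 with Gbp4 and Gbp6 was -0.16 and Zfp942 with Zfp944 was -0.35, none of them called. No paired analysis was possible because the 2 strains are separate mice, 1 per array. All other sign changes were among results that were not called, most of them near 0. With arrays centred on their median the values were Tuba1b with Tuba1c -0.0379, Gm5560 with Slc25a5 -0.0372, Rtl8a with Rtl8b -0.036, Hps1 with Slc38a6 -0.0355, Cerkl with Itga4 -0.0355 and Gtf3c2 with Mpv17 -0.0261. With the covariate the values were Gm7776 with Psme1 0.28, Mrpl27 with Mrpl27-ps 0.0948, Atn1 with Rnu7 0.0516, Ncoa4 with Ncoa4-ps 4.46e-05, Snrpn with Snurf 0.11, Tuba1b with Tuba1c -0.0335, Rtl8a with Rtl8b -0.0958 and Cyp4a10 with Cyp4a31 with Cyp4a32 -0.31. Further values there were Slc10a4 with Zar1 -0.0395, 1700124K17Rik with Arid2 0.11, Ankhd1 with Eif4ebp3 0.0874, Cdc26 with Fkbp15 0.00627, Gm21978 with Smarca5 0.12, Cd59b index 0.26 and Cd59b index 0.37. With the file letter as block the values were Snrpn with Snurf 0.00402, Tuba1b with Tuba1c -0.000709 and Rtl8a with Rtl8b -0.0115. On letter A arrays alone the values were Ccdc142 with Mrpl53 0.0543, Ncoa4 with Ncoa4-ps 0.00593, Snrpn with Snurf 0.0328, Tuba1b with Tuba1c -0.0306, Cerkl with Itga4 -0.0198 and Gtf3c2 with Mpv17 -0.0204. On letter B arrays alone the values were Psma5 with Psma5-ps 0.0456, Gm5560 with Slc25a5 -0.32, Rtl8a with Rtl8b -0.14, Hps1 with Slc38a6 -0.0684, Cyp4v3 with Klkb1 -0.57, Cd59b with Sfi1 -0.32, Grcc10 with Rnu7 -0.0261 and 1700124K17Rik with Arid2 0.15. Further values there were Ankhd1 with Eif4ebp3 0.13, Cdan1 with Ttbk2 0.0533, Cd59b index -0.0432, Mtm1 index -0.0118, Cd59b index -0.11, Mtm1 index -0.0755 and Pisd-ps3 index 0.0248. With no filter the values were Cerkl with Itga4 -0.0515, Cd59b index 0.16, Zfp932 index -0.15 and Cd59b index 0.12. With the filter at the 75th percentile the values were 1700124K17Rik with Arid2 0.0146 and Cerkl with Itga4 -0.12. Without 3 D2 arrays the values were Ncoa4 with Ncoa4-ps 0.0138, Snrpn with Snurf 0.0335, Tuba1b with Tuba1c -0.00348, Rtl8a with Rtl8b -0.0192 and 1700124K17Rik with Arid2 0.00355. With means the values were Cerkl with Itga4 -0.0407, Gtf3c2 with Mpv17 -0.0477 and Pisd-ps3 index 0.000793.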
